A study of Mus musculus with 2 samples.

Results

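Spliced antisense transcript models are long-read models of at least 2 exons of the class Antisense, which is given to models on the strand opposite an annotated gene. All such models in the deposited tables were taken: 340 of 65815 models in replicate 1 and 674 of 99180 in replicate 2. Matched by chromosome, strand and the exact positions of every intron (the intron chain), they came to 942 different chains. Of these, 931 overlapped an annotated gene on the other strand and 11 overlapped none. Each of the 931 was paired with 1 such gene, called the facing gene. Where 2 or more were overlapped (109 chains), it was the one sharing the most introns, then the most exon bases. A chain was set apart when all of its introns are, base for base, annotated introns of the overlapped genes on the other strand. That was so for 247 chains, and the remaining 695 had at least 1 intron of their own. Of the 247, 20 overlapped 2 or more such genes, and introns of any of them counted. All are called introns of the facing gene throughout.

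The series holds 1 group of 2 libraries, both long-read RNA-seq of adrenal gland tissue. The mice were females of B6CASTF1/J, the F1 cross of C57BL/6J and CAST/EiJ, aged 25 days. RNA was labelled as total RNA, no treatment or second tissue was given, and no condition could be compared. The libraries are called biological replicates 1 and 2. The library descriptions name the same animal for both while the tissue descriptions name 2, so whether the replicates are separate animals cannot be told from the labels, and the spread between them may be technical.

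An antisense transcript is made from the strand opposite a gene. Some start near the promoter of that gene and run away from it, others cover its exons, and several are known to alter transcription, splicing or stability of the RNA they face. Introns of mammalian genes nearly always begin with GT and end with AG on the strand that is transcribed. An intron read on the wrong strand therefore shows CT at its beginning and AC at its end, so the ends of an intron tell on which strand it looks like an ordinary intron.

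The following intron ends show these cases. Each line gives 12 bases on either side of an intron boundary, 5′ to 3′ on the strand of the antisense model, with the 2 outermost bases of the intron in capitals. The chains opposite Nr2f2, Snrnp70 and Tpt1 have the annotated introns of the gene they face. The intron at chr7:70354932-70357762 and the one at chr7:70358291-70359887 belong to the chain opposite Nr2f2, the intron at chr7:45392134-45392262 to that opposite Snrnp70, and the intron at chr14:75846394-75846693 to that opposite Tpt1. All were read as CT and AC.
Nr2f2, upstream intron, beginning: gaccacaggcatCTggaagaaagt
Nr2f2, upstream intron, end: tctccttcctACctgaggtgaaca
Nr2f2, downstream intron, beginning: ctctctgtacagCTgcaggaggaa
Nr2f2, downstream intron, end: agaggccgatACcttcccgtctca
Snrnp70, beginning: tttttcccgtctCTgccagtagaa
Snrnp70, end: aaaacagcatACctttctctccat
Tpt1, beginning: ttgcctttgagtCTaaaacagtaa
Tpt1, end: tatgtcacttACgatttcatgtag

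Chains with introns of their own opposite Nat8f2 (chr6:85868076-85868845), Sel1l (chr12:91806913-91809586) and Slc4a3 (chr1:75547575-75549743) begin with GT and end with AG on the strand of the model. The chains opposite Neat1 (chr19:5840809-5840867) and Smg1 (chr7:118205045-118205108) have the same outermost bases, and in addition nearly the same sequence stands at both ends of the intron.
Nat8f2, beginning: atgtgcattcagGTaagacttggt
Nat8f2, end: tttcctcttcAGggcccagagttg
Sel1l, beginning: aaggtagagatgGTgagtggtaat
Sel1l, end: gtatgtttgcAGaacgaagaaaga
Slc4a3, beginning: gagctggatgtgGTaaggtttcct
Slc4a3, end: ctcccctgacAGgtgaacaaggtg
Neat1, beginning: gggcatagagcaGTgtttgcagga
Neat1, end: ggcatagagcAGtgtttgcaggac
Smg1, beginning: gaagatggctagGTtggtaaagtg
Smg1, end: ataggaagctAGgttggtaaagtg

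The libraries held 417274 mouse reads in replicate 1 and 755598 in replicate 2. Cyp11a1, the enzyme that begins steroid synthesis, a marker of the adrenal cortex, was the most read gene in sum, with 11136 and 17191 reads. Intervals below are 95% Wilson intervals and cover counting error only. Reads were counted without molecular identifiers, so they are not independent molecules. Where no read was found, up to 3 remain possible, a level of 7.19 CPM (a chain's reads scaled to the library's mouse reads) in replicate 1 and 3.97 in replicate 2.

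Spliced antisense models were rare in both libraries. They took 513 reads in replicate 1, a share of 0.123% of the mouse reads (0.113 to 0.134), and 1214 reads in replicate 2, a share of 0.161% (0.152 to 0.170). The mean was 0.142% ± 0.0267 (SD, n = 2). The share was higher in replicate 2 by 0.0377 percentage points, more than counting error gives (two-sided Fisher's exact test on reads, p = 2.45e-07, n = 2 libraries). Depth differed along with this share, and so did the class given to some chains. For the chain opposite Igf1r, 31 reads of replicate 1 stood under another class and are not counted here. Its 61 reads of replicate 2 are counted. For the chain opposite Tspan12, the 7 reads of replicate 1 are counted and the 17 of replicate 2 are not. The part of depth or class in the difference was not tested. The class Antisense as a whole held 7682 and 13893 models, so models with introns made up 4.43% and 4.85% of it. Genes that the files class as antisense held a further 96 and 255 spliced models under other transcript classes. These had 185 and 477 reads, which the shares above leave out.

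Most of the models rested on 1 read: 300 of 340 in replicate 1 and 558 of 674 in replicate 2. Models of 5 or more reads numbered 9 and 30. A single intron was the commonest form, with 233 and 479 models of 2 exons, 63 and 123 of 3 exons, and 44 and 72 of 4 or more. Median model length was 1346.5 and 1420.5 bases. The most exons were found opposite Oxr1, a gene of resistance to oxidative damage, with 14 exons and 1 read in replicate 2. The next were 2 chains opposite AC149090.1 on the unplaced scaffold Un_JH584304, with 12 exons (1 read in replicate 2) and 9 exons (1 read in replicate 1).

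Of the 942 chains, 72 were of class Antisense in both libraries. The class depends on which gene the software gave a model to, and a chain can bear another class in the other library. Counting these, 106 chains were read in both libraries, 35 with the introns of the facing gene and 71 with introns of their own.

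**Figure D1:**
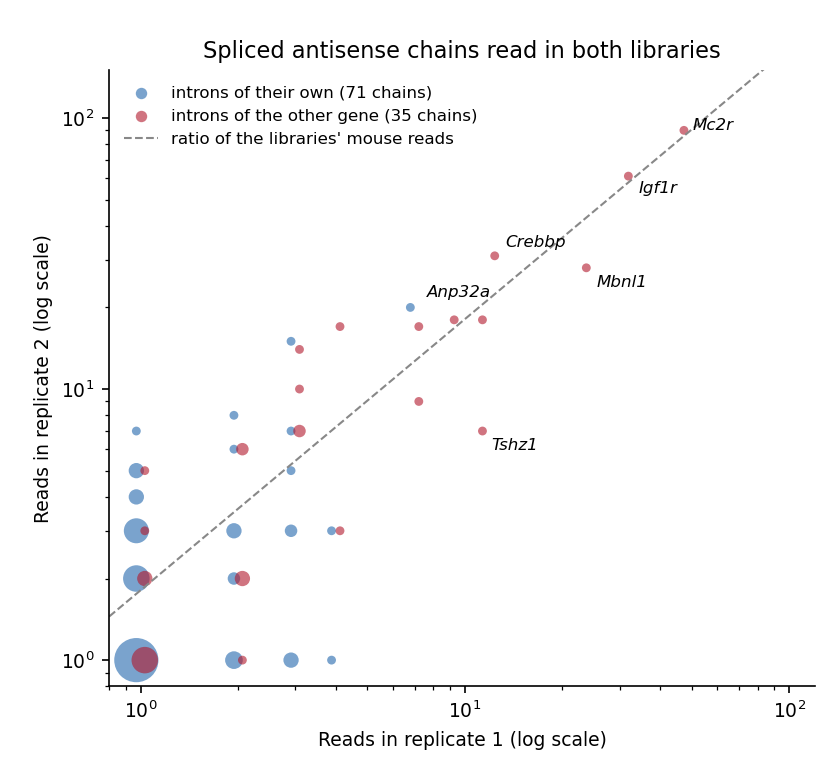
Reads per chain in replicate 1 (x axis) and replicate 2 (y axis), both on log scales, for the 106 chains read in both libraries under any class; the area of a point grows with the number of chains at that position, and the dashed line is the ratio of the libraries' mouse reads. Mc2r (46 and 90 reads) and Igf1r (31 and 61) lie at the top close to the line, and most chains with introns of their own lie at 1 to 3 reads.

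The 247 chains with the introns of the facing gene held a larger part of the reads than of the models. They were 89 models (26.2%) in replicate 1 and 189 (28.0%) in replicate 2, but took 230 reads, 44.8% of the spliced antisense reads (40.6 to 49.2), and 552 reads, 45.5% (42.7 to 48.3). Their read share did not differ between the libraries beyond counting error (two-sided Fisher's exact test, p = 0.832, n = 2 libraries). Among models of at least 2 reads it did, by -13.7 points in replicate 2 minus replicate 1 (p = 0.000246, same exact test). The chain opposite Mc2r alone weighed on this share, which was 39.4% and 41.1% without it. Both tests count reads of class Antisense only, so the chains compared are not the same in both libraries. The chain opposite Igf1r entered with 0 and 61 reads, though it had 31 and 61 under any class. That opposite Tspan12 entered with 7 and 0, though it had 7 and 17. Of the 9 models with at least 5 reads in replicate 1, 8 had the introns of the facing gene, and 18 of the 30 in replicate 2.

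In their outline these chains followed the facing gene, in part by the rule that set them apart. All 247 overlapped its exons, which sharing its introns makes certain. A span wholly inside the gene, found for 243, is also favoured by that rule. A protein-coding gene was faced by 243. In 36 chains the introns were the complete intron chain of an annotated transcript read on the other strand. The 3′ end of the antisense model stood at exactly the first base of an annotated transcript of the facing gene in 93 chains, and its 5′ end at exactly the last base of one in 68; 28 had both. Among the 31 of class Antisense in both libraries, 22 ended at an annotated start. How the authors set the strand and the ends of a model is not given in the sources used here, and the part of that step in these coincidences was not tested.

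The most read chain lay opposite Mc2r (ENSMUSG00000045569.7), the receptor for the pituitary hormone ACTH that drives cortical steroid synthesis. Its 3 exons run on the plus strand over chr18:68406907-68429320, and both introns are those of Mc2r. It had 46 reads in replicate 1 and 90 in replicate 2, 115 ± 6.27 CPM (SD, n = 2). On the strand of Mc2r itself, 15 and 31 reads had the same introns, and all models of the gene together had 29 and 60. In both libraries, then, the antisense reads outnumbered the reads assigned to the gene. Of reads with these introns on either strand, 75.4% (63.3 to 84.5) and 74.4% (65.9 to 81.3) were antisense. The model is 1631 bases long in both libraries and ends exactly at an annotated start of Mc2r.

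The chain opposite Igf1r, the receptor of insulin-like growth factor 1, was the next by summed reads. It has a single intron of 50857 bases within chr7:67952827-68005407 on the minus strand. Replicate 2 had 61 reads under the class Antisense, and replicate 1 had 31 reads of the same chain under a class for new combinations of annotated splice sites (NIC). Reads with this intron on the strand of Igf1r numbered 6 in each library. The antisense share was 83.8% (68.9 to 92.3) and 91.0% (81.8 to 95.8).

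Mbnl1, a regulator of splicing, faced a chain of 23 and 28 reads over chr3:60529549-60595749 on the minus strand. Its single intron of 65789 bases was found in 4 reads of each library on the strand of the gene, against 48 and 83 reads for all models of Mbnl1. The model spans 412 bases of exon in both libraries.

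The chain opposite Crebbp had the most exons of the well-read chains, 6 exons over chr16:4128444-4213997 on the plus strand. Crebbp is a histone acetyltransferase that serves as a coactivator of many transcription factors. Antisense reads were 12 and 31, and no read with all of these introns was found on the strand of the gene, which had 3 and 6 reads in all. The model was 2344 bases long in both libraries and ended at an annotated start of Crebbp.

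Nr2f2, which encodes the orphan nuclear receptor COUP-TFII, faced a 3-exon chain over chr7:70353442-70360593 on the plus strand, whose intron ends are printed above. It had 11 and 18 reads, against 4 and 3 with the same introns on the strand of the gene. Bcl2l1, which encodes the survival protein Bcl-xL, faced a chain of 9 and 18 reads against 7 and 10. Gtf2a1, a subunit of the general transcription factor TFIIA, had 4 and 17 antisense reads and none with these introns on its own strand. Carmil1, a regulator of actin capping protein, had 3 and 14 antisense reads against 1 and 0. In these 4 genes the antisense reads outnumbered, in each library, the gene's own reads that had the same introns. They did not always outnumber all reads of the gene: all models of Bcl2l1 together had 28 and 45.

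The other well-read chains were divided. Tshz1, a zinc-finger transcription factor gene, had 11 and 7 antisense reads against 3 and 5. Lyrm4, which takes part in the making of iron-sulphur clusters, had 7 and 9 against 7 and 11, so neither strand led in both libraries. Tspan12, a tetraspanin, had 7 and 17 against 30 and 68, and the 17 reads of replicate 2 stood under the class of incomplete splice matches (ISM). B2m, the light chain of MHC class I, had 3 and 10 against 74 and 193, an antisense share of 3.90% (1.33 to 10.8) and 4.93% (2.70 to 8.83).

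**Figure D2:**
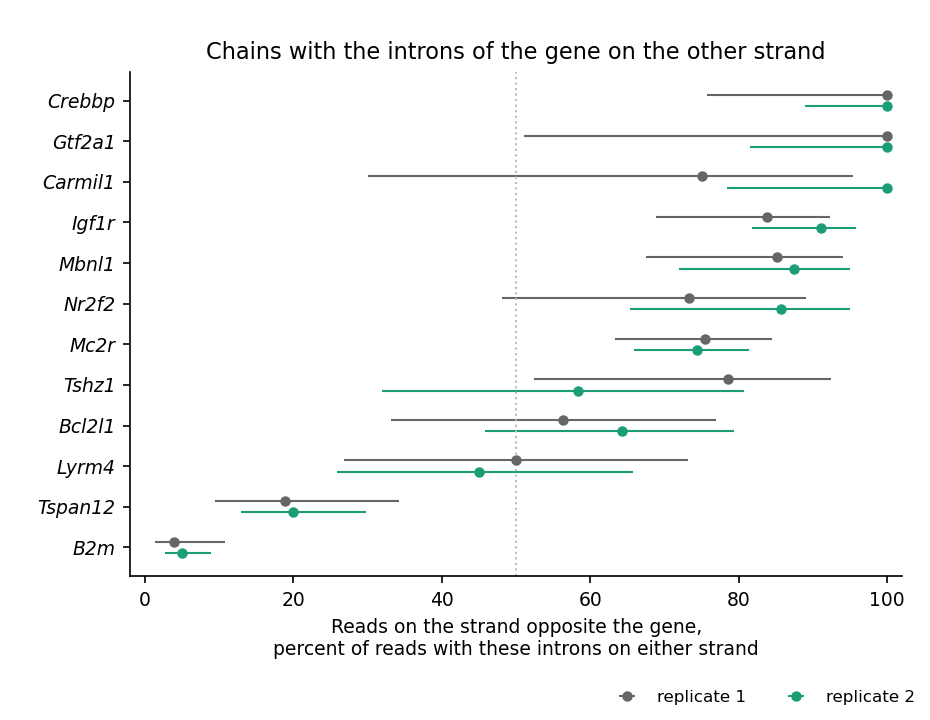
Percent of the reads with a chain's introns that lie on the strand opposite the gene, per library, for 12 well-read chains that have the introns of the facing gene; bars are 95% Wilson intervals and the dotted line marks equal numbers on both strands. Crebbp and Gtf2a1 stand at 100% in both libraries, Mc2r at 75.4% and 74.4%, and B2m at 3.90% and 4.93%.

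Sense reads are counted here as those on the gene's strand that hold all of the chain's introns, not as all reads of the gene. On that count, 11 of the 35 chains of this kind read in both libraries had more antisense than sense reads in each. Another 17 had fewer in each, and 7 were mixed. For Mbnl1 and Bcl2l1, among the 11, all models of the gene had more reads than the chain in each library, for Mc2r and Crebbp fewer. The 11 faced Mc2r, Igf1r, Mbnl1, Crebbp, Nr2f2, Bcl2l1, Tshz1, Gtf2a1, Carmil1, Zfhx3 and 4732471J01Rik. At the other end stood Ech1, an enzyme of fatty acid oxidation, with 1 antisense read in each library against 207 and 341 sense reads, and Hnrnpu, an RNA-binding protein gene, with 1 in each against 134 and 254. The antisense share per chain thus ran from 0.481% and 0.292% (Ech1) to 100% in both libraries (Crebbp, Gtf2a1, Zfhx3). The chain opposite Zfhx3 had fewer than 10 summed reads. Against all spliced reads of annotated genes, the 263 and 571 reads of these 247 chains under any class amounted to 0.0746% (0.0661 to 0.0842) in replicate 1 and 0.0903% (0.0832 to 0.0980) in replicate 2.

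Chains of this kind were found opposite genes of all levels. Of the 20 most read genes, 1 had a chain with its introns opposite: Sparc, a secreted matrix protein gene, with 0 and 4 antisense reads beside 1341 and 2247 reads of the gene. Cyp11a1 had none. By the summed reads of the facing gene, such a chain was found for 0.820% of genes with 1 to 9 reads (0.622 to 1.08), 1.94% with 10 to 99 (1.64 to 2.30), 2.45% with at least 100 and fewer than 1000 (1.88 to 3.20) and 1.87% with 1000 or more (0.514 to 6.56; 2 of 107 genes). The intervals of the 3 higher groups overlap.

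The 695 chains with introns of their own were more numerous, and few of them were well read. They made up 251 and 485 models with 283 and 662 reads, and models of 5 or more reads numbered 1 and 12. In 98 of them the facing gene had no read in either library, against 1 of the 247 others. Protein-coding genes faced 588 and lincRNA genes 47. Their outline, which the rule does not tie to the gene's introns, was more varied. Inside the facing gene lay 434, while 147 (21.2%) ran past its start, 75 past its end and 28 past both. The other 11 overlapped no annotated gene on the other strand. The 5′ end of 196 lay within 1000 bases of an annotated start of the facing gene. Some, such as the chain opposite Sctr, began exactly at an annotated start and overlapped exons of the gene by 1 base. The part of the step that set the ends of models was not tested for these chains either, including those named below.

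**Figure D3:**
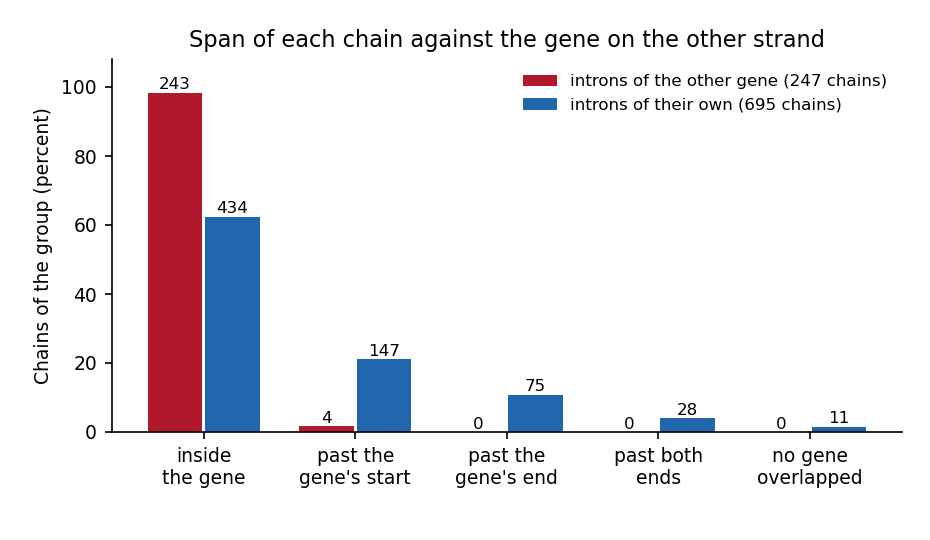
Percent of chains by the position of their span against the gene on the other strand, for chains with the gene's introns (red) and with introns of their own (blue); numbers on the bars are chains. Of the 247 red chains 243 lie inside the gene, a position that sharing the gene's introns favours by itself. Of the 695 blue chains 147 run past its start.

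The best-read chain of this kind lay opposite Anp32a, which encodes an acidic nuclear phosphoprotein. It has 2 exons over chr9:62341554-62344063 on the minus strand, an intron of 1960 bases, and a 5′ end exactly at an annotated start of the gene. It had 7 reads in replicate 1 and 20 in replicate 2, 21.6 ± 6.85 CPM (SD, n = 2), beside 22 and 43 reads of Anp32a. The model is 550 bases long in both libraries, 89 of which overlap exons of the gene.

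The chain opposite Nxnl1, a thioredoxin-like gene known from the retina, had 2 and 8 reads over chr8:71558871-71562936 while the gene itself had 0 and 1. Opposite Vwf, the von Willebrand factor gene of endothelium and platelets, a chain had 1 and 7 reads and Vwf had none. A chain opposite a (nonagouti, a pigment gene) had 4 and 1 reads beside 0 and 3 of the gene. A chain opposite Dgki, a diacylglycerol kinase gene, had 2 and 2 reads and one opposite the lincRNA gene Gm12524 had 1 and 4, with no read of either gene. These 5 chains were thus read where the facing gene had at most 3 reads per library. The chain opposite a overlapped another gene on that strand too, whose reads are not counted here.

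Other chains faced genes that were read. Tpp2, a peptidase gene, faced a chain of 1 and 5 reads (chr1:43932230-43934007) that runs past the gene's start, its 5′ end again exactly at an annotated start. Tra2b, a splicing factor gene, faced 1 and 5 reads, and Cdk17, a kinase gene, 2 and 3. Gm7247 faced 2 and 6 reads. The 5′ end of the Cdk17 chain stood at an annotated end of that gene and its 3′ end at an annotated start, and its intron of 46968 bases lay within 10 bases, at each end, of an annotated intron without being it. That held for every intron of 41 of the 695 chains, and 20 others shared some but not all introns with the facing gene.

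Some chains were of class Antisense in 1 library only, in part because the other library gave them another class. Opposite Cep85, a centrosome gene, a 2-exon chain over chr4:134159795-134164628 had 0 reads in replicate 1 and 15 in replicate 2. Opposite Neat1, the long noncoding RNA of paraspeckles, a chain had 3 reads in replicate 1, under the class Genomic, and 15 in replicate 2. Gm28100 faced 3 reads in each library, of another class (NNC) in replicate 2. Opposite Ccdc80, a gene of a secreted matrix protein, a 2-exon chain with the gene's intron had 4 reads in replicate 1 and, under any class, 0 in replicate 2.

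All spliced chains with at least 10 summed reads, annotated ones included, were compared between the libraries by a two-sided exact binomial test with Benjamini-Hochberg adjustment. Of 9574 chains, 176 passed at 0.05, a background of 1.84%. Of the 19 spliced antisense chains tested, 0 passed, and 2 had an unadjusted p under 0.05, as had 1061 of the 9574. The 2 were Cep85 (15 of 15 reads in replicate 2, p = 0.00194, exact binomial, adjusted p = 0.0842) and Tshz1 (11 and 7 reads, p = 0.0281, adjusted p = 0.348). For Mc2r the log2 ratio of replicate 2 over replicate 1, with 0.5 added to each count and scaled by mouse reads, was 0.10. With 19 chains, a count of 0 is near that background. A p that misses the threshold does not show equal levels.

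The ends of the introns were read where the sequences of annotated transcripts or RefSeq promoter windows (GRCm38.p6) cover them, which holds for a small part: 24 of the 343 different introns that are annotated introns of the facing gene, 5 of the 41 within 10 bases of one, and 67 of the 995 others. All 24 introns of the facing gene had CT and AC on the strand of the model, hence GT and AG on the strand of the gene (100%, 86.2 to 100). This follows nearly by definition, since they are that gene's introns. All 5 that lie within 10 bases of an annotated intron of the facing gene without being it had GT and AG on the strand of the model. Of the 67 further ones, 59 had GT and AG on the strand of the model, 7 had GC and AG, a known minor form, and 1 had CT and AC. Read the same way, annotated introns had GT and AG in 94.9% of 25818 cases. How the strand and introns of a model were set is not given, and the part of that step in these ends was not tested.

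**Figure D4:**
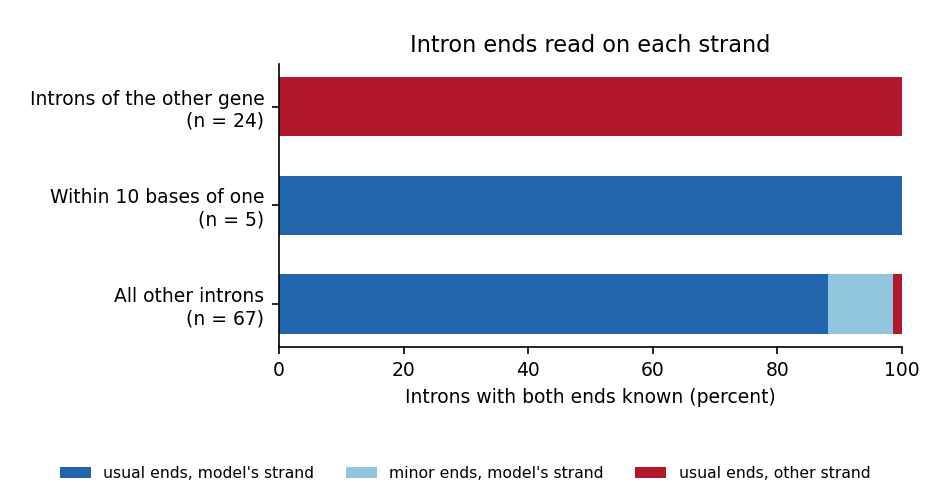
Percent of introns with both ends known, by the strand on which their outermost bases are those of an ordinary intron; n is the number of introns in each row. All 24 introns shared with the facing gene have usual ends on the other strand. Of the 67 introns neither shared with the facing gene nor within 10 bases of one of its annotated introns, 59 have them on the strand of the model.

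The likeness between the ends of an intron, seen for Neat1 and Smg1, was measured as the longest run of identical bases shared by the 24-base windows around both ends. The limit of 8 bases was chosen after these sequences were seen. Of the 62 introns with known windows that are neither in nor near an annotated intron of the facing gene, 5 shared a run of at least 8 bases (8.06%), against 1.42% of 24383 annotated introns and 0 of 23 shared with the facing gene. The run was 23 bases for the 59-base intron opposite Neat1, 17 for the 64-base intron opposite Smg1, 16 for a 196-base intron opposite St13, 22 for an intron of 25731 bases opposite Slfn8 and 9 for one of 627 bases opposite Cpsf4l. The median was 4 bases in these 62 introns and in annotated introns alike. Introns shorter than 100 bases made up 69 of 1112 in chains with introns of their own and 17 of 320 in the other chains. Whether such a gap was in the RNA or arose in making or aligning the read was not tested.

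Finding a chain again in replicate 2 depended on its reads in replicate 1 and on how classes were matched. Of the 340 chains of replicate 1, 72 (21.2%, 17.2 to 25.8) were of class Antisense in replicate 2 too. Incomplete splice matches were found again in 43.7% of cases and new combinations of annotated splice sites in 36.9%, both higher (two-sided Fisher's exact test over chains, adjusted p = 2.99e-17 and 1.33e-09). Models with a new splice site (NNC) were found again in 19.1%, which did not differ past the threshold (adjusted p = 0.362). Matched under any class, antisense chains were found again in 27.6% and these in 22.3%, a difference that passed (adjusted p = 0.0244). Incomplete splice matches (44.4%) and new combinations (40.0%) stayed higher than antisense chains under any class (same test, adjusted p = 1.23e-09 and 5.12e-06). Among chains of 1 read the order was the same for these, with 19.3% of antisense chains, 33.2% of incomplete splice matches and 28.0% of new combinations. Chains are not replicates, and these p-values cover counting over chains only.

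With the class in replicate 2 set aside, chains of 2 or more reads in replicate 1 gave another order. Of 40 such antisense chains, 36 were found again (90.0%, 76.9 to 96.0), against 78.6% of incomplete splice matches, 80.4% of new combinations and 72.0% of models with a new splice site. The last difference passed (two-sided Fisher's exact test, adjusted p = 0.0323) and the others did not (0.158 each). Within chains of 2 to 4 reads it did not pass (same test, adjusted p = 0.0548). At 5 or more reads, 100% of 9 antisense chains and 99.5% of models with a new splice site were found again. Within the antisense chains, those with the facing gene's introns were found again as Antisense in 31 of 89 cases (34.8%, 25.7 to 45.2) and the others in 41 of 251 (16.3%, 12.3 to 21.4). For chains of 2 or more reads under any class the counts were 19 of 21 and 17 of 19.

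**Figure D5:**
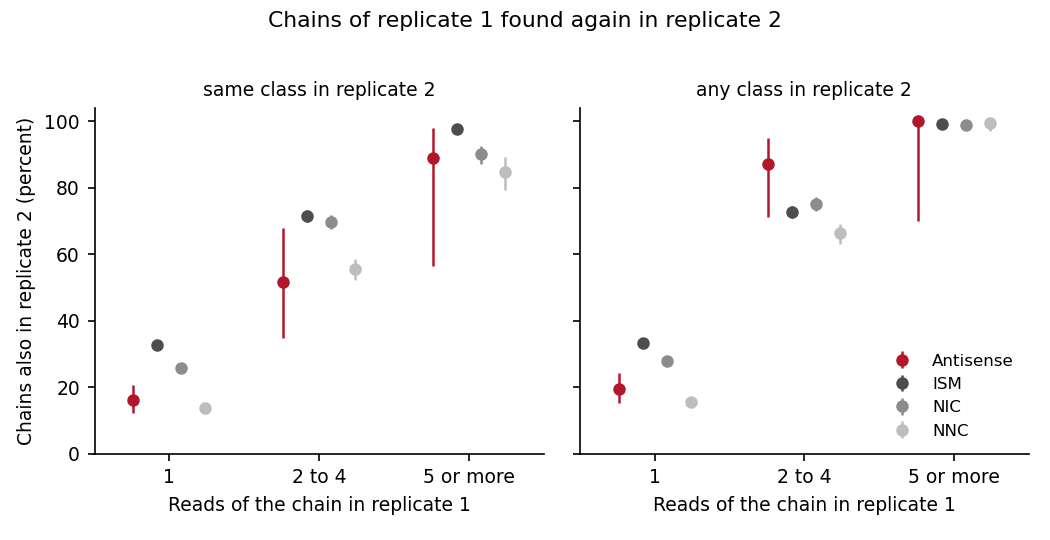
Percent of chains of replicate 1 also read in replicate 2 (y axis), by reads in replicate 1 (x axis) and class, matched to the same class (left) or to any class (right); bars are 95% Wilson intervals. Antisense chains of 1 read are at 16.0% on the left and 19.3% on the right, and those of 2 to 4 reads move from 51.6% to 87.1%.

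Listed genes faced spliced antisense chains at close to the share of all genes. The 7 lists were steroidogenesis, chromaffin cells, cholesterol synthesis, chaperones, cytoskeleton, translation factors and other adrenal cell types. Of their 131 genes with reads, 7 had a spliced antisense chain opposite (5.34%), beside 5.06% of the 15012 genes with reads and an annotated intron. A listed gene counted when a chain overlapped it, one of the 15012 only when a chain was paired with it. Of the 20 steroidogenesis genes this was Mc2r alone. Of 24 chromaffin-cell genes read, 2 had one: Th, tyrosine hydroxylase (1 and 0 antisense reads beside 842 and 1206 of the gene), and Pcsk2, a prohormone convertase (0 and 1). Of the 12 translation factors 2 did, Eif3c (1 and 0) and Tpt1 (0 and 1), and of 24 read genes of other adrenal cell types the endothelial genes Cdh5 (1 and 0) and Kdr (0 and 1). None of the 22 cholesterol synthesis genes, 17 chaperones or 12 read cytoskeleton genes had one.

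The chains faced 856 genes, 787 of them with 1 chain and 64 with 2. The most, 4, lay opposite AC149090.1, which had 258 and 415 reads itself, and every one of the 4 was read in a single library. Another 4 genes had 3 chains each: Wwox, an oxidoreductase gene in a fragile chromosomal site, Tmem94, the integrin gene Itga9 and Kdm2a, a histone demethylase gene. The best-read of these lay past the end of Wwox with 0 and 7 reads.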

How the data were processed

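Per the file headers, the authors deposited for each library a table of read counts per transcript model with each model's class, exon number and length, and an annotation with the position of every exon on mm10; model names are those written by TALON on GENCODE M21. Aligner and program versions: not given in the sources used here. Reads on spike-in control RNAs (8876 and 14443, ERCC and any SIRV sequences counted together) were left out. SIRV controls were not analysed here. Members, gene lists and the naming rule were chosen with earlier results of these data known.

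Gene spans and introns came from annotated transcripts of GENCODE M21, because the deposited gene records of many genes span other positions. Named chains were, in each kind, the 10 with the highest smaller count, the 3 most read of class Antisense in 1 library only, those facing listed genes, those of the genes with the most chains (ties kept) and the 3 with the most exons. With 1 library a side no count model has residual degrees of freedom, so reads were compared by exact binomial and Fisher tests (scipy 1.17.1) and shares by Wilson intervals. Tested on simulated data for the same 9574 chains, the binomial step recovered 176 of 200 chains changed 4-fold, with 5 false calls. TMM (edgeR 4.0.16) and DESeq2 1.42.0 scaling were alternatives. Intron ends were read from transcript and RefSeq promoter sequences, since no genome of the build was used here. Matching under any class, leaving out the chain opposite Mc2r, and reading intron ends in this way were chosen after seeing the data.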

Additional observations from a re-analysis of the deposited data

How the results depend on the processing

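Counting only models of at least 2 reads left 40 and 116 models, and at least 5 reads left 9 and 30. The mean share of mouse reads was 0.0689% with at least 2 reads and ran from 0.123% to 0.161% without either replicate. Chains in both libraries numbered 21 with at least 2 reads in each and 8 with at least 5. The mean read share of chains with the facing gene's introns was 46.6% when 1 such intron sufficed, 48.8% within 10 bases, 69.2% for models of at least 2 reads and 40.3% without the chain opposite Mc2r, and 44.8% to 45.5% without either replicate. Its difference between libraries (replicate 2 minus 1) turned from 0.635 to -1.05 points within 10 bases (p = 0.712, two-sided Fisher's exact test) and to -13.7 with at least 2 reads (p = 0.000246). Against antisense, chains found again differed by -11.4 points for incomplete splice matches, -9.63 for new combinations and -18.0 for new splice sites under any class with 2 or more reads, by -5.34 for new splice sites under any class (now past the threshold, as is -18.0), and within the same class with 2 or more reads by 14.3 for new combinations (no longer past the threshold) and 0.542 for new splice sites; the cause was not tested. Introns with GT and AG were 98.6% when minor forms were counted, over 88.9%; both come from introns covered by transcripts, and the version read from a genome was not run. The other 43 alternative values, those without either replicate included, kept their direction and their side of the threshold or, with no test, stayed within the limits set for counts and shares. Among them, chains in both libraries rose from 72 to 74 within 10 bases and to 101 by 1 shared intron, chains with the facing gene's introns ran from 244 to 288, and 703 rather than 931 chains overlapped a gene when exons had to overlap. No paired analysis was possible because there is 1 group.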
